A study of Mus musculus with 10 samples.

Results

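The miR-130 and miR-301 family was read here as 4 mouse miRNAs, mmu-miR-130a-3p, mmu-miR-130b-3p, mmu-miR-301a-3p and mmu-miR-301b-3p (the species prefix is left out from here on), taken by name from the 1340 mature miRNAs of the deposited table, in which all 4 were present. The tissue was the RPE/choroid/sclera, the pigmented, vascular and fibrous layers behind the neural retina, and its small RNA was sequenced at postnatal day 34 in wild type mice of the C57BL/6J strain. Each animal had worn a -20 dioptre lens in front of 1 eye for 10 days, starting at postnatal day 24, with the fellow eye left bare. The 10 libraries were 5 left and 5 right eyes that shared the title numbers 61, 64, 65, 66 and 68, and all came from animals that wore a lens. The labels do not state which eye wore it, so right was compared with left eye, and these values do not measure the effect of the lens.

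A miRNA guides the silencing complex to mRNAs mainly through its seed, bases 2 to 8 from the 5′ end, so miRNAs with a common seed are expected to share many targets. The family is known for repressing regulators of growth, fat cell differentiation and TGF-beta signalling, and has been linked to endothelial growth and to the stiffening of vessel walls. Vessels and fibrous matrix make up much of the choroid and sclera.

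The sequences are shown because the 4 members are defined by what they share and told apart by what they do not. Those below are RefSeq's on GRCm38.p6, written 5′ to 3′ with bases 2 to 8 in capitals. Of the 4 members, 3 had a mature entry in the table used. miR-301b-3p had none and is given by name and position.

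miR-130a-3p: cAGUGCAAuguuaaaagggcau
miR-130b-3p: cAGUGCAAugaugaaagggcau
miR-301a-3p: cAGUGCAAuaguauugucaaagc
miR-19b-3p: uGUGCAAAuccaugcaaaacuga
miR-148a-3p: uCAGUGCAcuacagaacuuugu
miR-130b-5p: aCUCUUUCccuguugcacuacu

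The 3 members shown had the seed AGUGCAA, which pairs with the heptamer UUGCACU in a target. Over 22 compared bases, miR-130a-3p and miR-130b-3p differed at 2 positions, U11A and A13G, counted from the 5′ end with the base of miR-130a-3p first. From miR-301a-3p they differed at 10 and 11 of 22 bases, all after the first 9. The seeds of miR-19b-3p (GUGCAAA) and miR-148a-3p (CAGUGCA) are the same letters moved by 1 base in either direction. The 5p arm of the miR-130b hairpin, miR-130b-5p, has a different seed and is shown because it was the only other arm abundant enough to be tested.

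The members come from 3 places in the genome (GRCm38). miR-130a-3p lies on chromosome 2 (84741116 to 84741137, minus strand), in no annotated gene other than its own hairpin. miR-301a-3p lies on chromosome 11 (87113054 to 87113076, plus strand) in an intron of Ska2, a gene for a spindle and kinetochore protein. miR-130b-3p (chromosome 16, 17124071 to 17124092, minus strand) and miR-301b-3p (chromosome 16, 17124420 to 17124442, minus strand) both lie in introns of 2610318N02Rik, with 257 bases between their hairpins. In GENCODE M21 no exon of either host gene overlapped a hairpin.

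The values are a normalised signal, made by the authors and nearly equal in sum between libraries, so each miRNA is read relative to all others in its library. At high ranks the 10 libraries share 1 set of values, and a member's signal is then close to a step set by its rank. The depth of each library is unknown. All 28 miRNAs of 8 fixed cell type marker lists were above 0 in every library. The pigment epithelium miRNAs miR-204-5p and miR-211-5p, which the labelled tissue should hold, summed to between 1959 k and 1989 k (k, kilounits of signal). Only 1 of these 2 varied between libraries, so the narrow range does not show a steady content of that cell type. Retina and neuron markers, which the labelled tissue should largely lack, summed to between 189.0 and 473.5 k in 9 libraries and to 1330.3 k in right eye 68. Fewer cells of a type and less RNA per cell cannot be told apart in such bulk samples.

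All 4 members were present in every library and always in the same order. miR-130a-3p was the leading member by far. Its signal in the left eyes was 31564 in number 61, 35097 in 64, 33579 in 65, 37868 in 66 and 28901 in 68. In the right eyes it was 35097, 37868, 35097, 31564 and 28901 in the same order of numbers. It took only 5 different values, was lowest in both eyes of number 68, and the left and right eyes spanned the same range. It ranked between 40 and 47 among the 1340 miRNAs.

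miR-301a-3p came next, ranking between 89 and 101. Its signal in left eyes 61, 64, 65, 66 and 68 was 4145, 3976, 4256, 4701 and 4953. In the right eyes it was 4367, 3976, 5521, 4367 and 5902. The highest values were in right eyes 65 and 68 and the lowest in both eyes of number 64, the reverse of what was seen for miR-130a-3p in numbers 64 and 68.

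miR-301b-3p ranked between 104 and 121. Left eyes 61, 64, 65, 66 and 68 had a signal of 2473, 3303, 3359, 3700 and 3595. Right eyes had 3595, 3303, 3700, 3454 and 3553. Apart from left eye 61, which was low, all libraries lay between 3303 and 3700.

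miR-130b-3p was the least abundant and the most variable member, with ranks between 133 and 179. Its signal in left eyes 61, 64, 65, 66 and 68 was 1481, 1424, 1221, 1335 and 950. In right eyes it was 1335, 1811, 950, 761 and 872. Right eye 64 was highest and right eye 66 lowest, a 2.38-fold range, where miR-130a-3p ranged 1.31-fold and miR-301a-3p 1.48-fold over the 10 libraries. The coefficient of variation was 26.9% for miR-130b-3p and between 9.71% and 14.2% for the others.

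The 4 ranges of signal did not overlap. In each of the 10 libraries miR-130a-3p exceeded miR-301a-3p by between 4.90 and 9.52 times, miR-301a-3p exceeded miR-301b-3p by between 1.20 and 1.68 times, and miR-301b-3p exceeded miR-130b-3p by between 1.67 and 4.54 times. Differences between small RNAs in ligation and amplification were not tested. miR-301a-3p and miR-301b-3p are known to be nearly identical, and the rule for reads that match both was not found in the labels, so the split between these 2 members is uncertain. miR-130a-3p made up 78.3% ± 2.23 (SD, n = 10) of the family sum, miR-301a-3p 10.9% ± 1.98, miR-301b-3p 7.98% ± 0.924 and miR-130b-3p 2.82% ± 0.665. The family sum was 42376 ± 3624 over left eyes and 43199 ± 3352 over right eyes (SD, n = 5 each), between 0.323% and 0.401% of all signal in a library.

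**Figure D1:**
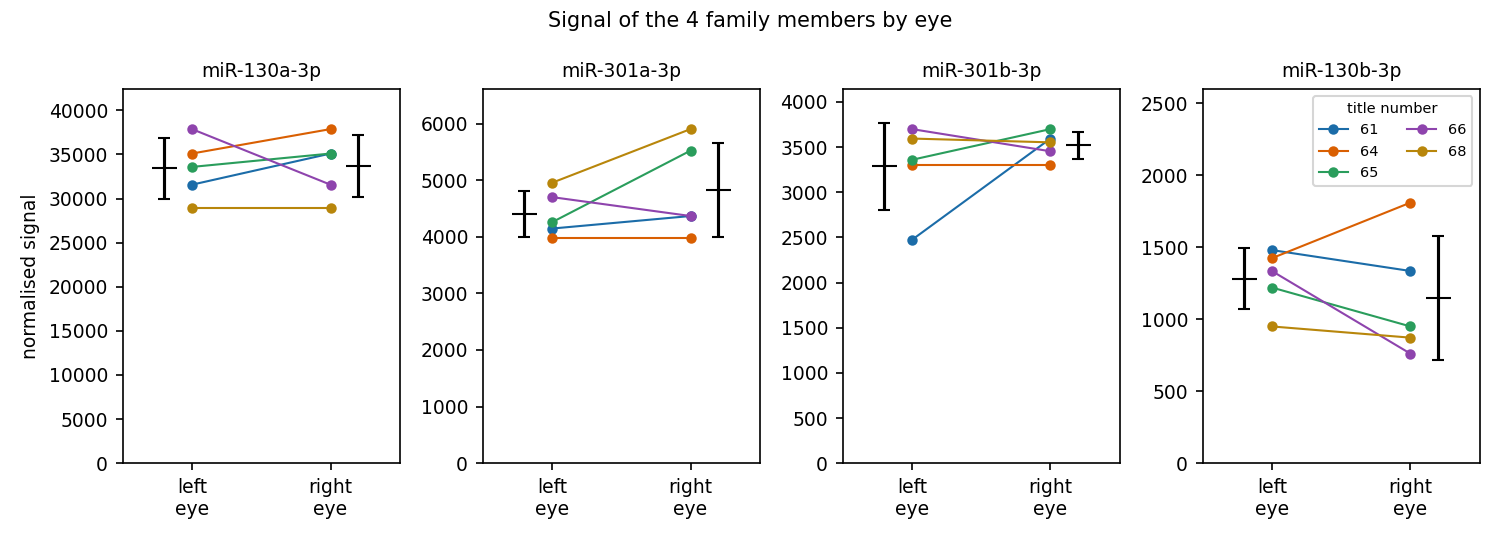
Normalised signal (vertical axis, from 0, with its own scale in each panel) of the 4 members in left and right eyes, with a line joining the libraries of a title number and black bars for the mean and SD of 5 eyes. The sides overlap in every panel, and miR-130b-3p, lower in the right eye in 4 of 5 numbers, is spread from 761 to 1811.

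No member differed between right and left eyes beyond the spread of the pairs. In limma, with the title number as a block and Benjamini-Hochberg adjustment over the 588 miRNAs with a mean signal of at least 10, 0 of 4 members passed an adjusted p of 0.05, where 0% of all miRNAs tested passed. At an unadjusted p under 0.05 there were 13 of 588 (2.21%) and no member. For miR-130a-3p the left mean was 33402 ± 3409 and the right mean 33705 ± 3495 (SD, n = 5 each). The log2 fold change was 0.01 on the log2(signal + 1) scale with a 95% interval of -0.17 to 0.20 (limma adjusted p = 0.985). For miR-301a-3p the means were 4406 ± 407 and 4827 ± 835, a log2 fold change of 0.12 (-0.09 to 0.33). For miR-301b-3p they were 3286 ± 483 and 3521 ± 150.4, a log2 fold change of 0.11 (-0.14 to 0.37).

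The largest difference was that of miR-130b-3p, whose left mean was 1282 ± 210.1 and right mean 1146 ± 430, giving a log2 fold change of -0.22 (-0.59 to 0.16). It was lower in the right eye in 4 of 5 numbers, where 13.3% of the miRNAs tested were lower in at least 4 of 5 and 14.8% were higher in at least 4 of 5. Without number 66 the log2 fold change was -0.072. The limma adjusted p was 0.967 for each of these 3. The left and right values overlapped for all 4 members, as they did for all but 0.170% of miRNAs. The intervals allow a right eye level between 0.662 and 1.11 times the left for miR-130b-3p, and between 0.889 and 1.15 times for miR-130a-3p. Steps between ranks can also hide a change. They averaged 3.9% per rank for miR-130a-3p, 3.3% for miR-301a-3p, 2.4% for miR-301b-3p and 1.9% for miR-130b-3p. miR-130b-3p also repeated its signal where its rank was the same, with 1335 at rank 147 in right eye 61 and left eye 66. The median log2 fold change was 0.06 over the 4 members and 0.02 over all miRNAs tested.

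**Figure D2:**
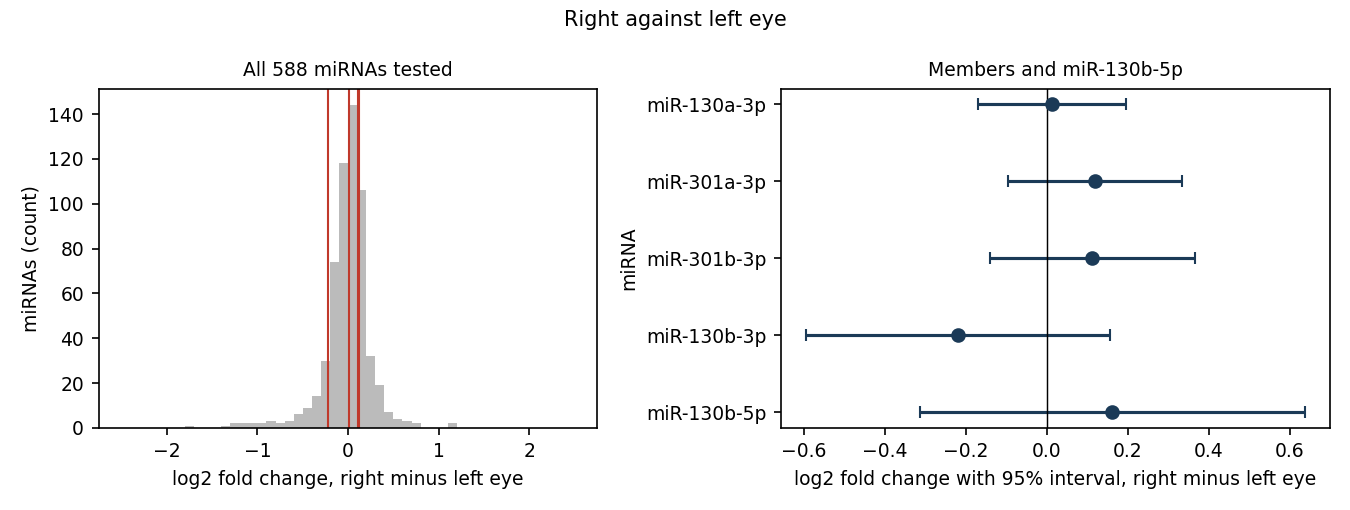
Left panel, the number of miRNAs (vertical axis) at each log2 fold change of right against left eye for the 588 miRNAs tested, with the 4 members as red lines. Right panel, the log2 fold change with its 95% interval from limma for the members and miR-130b-5p, and every interval spans 0.

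Across title numbers the members did not move as a block. The limma F test over the 5 numbers, in the same fit, passed 7 of 588 miRNAs at an adjusted p of 0.05 (1.19%) and 137 at an unadjusted p under 0.05 (23.3%), and 0 of the 4 members by either. miR-130b-3p came closest (unadjusted p = 0.0621, adjusted p = 0.237 in limma), with a mean of both eyes of 1617 in number 64 and 911 in number 68, a 1.76-fold difference of their log2 means. The gap between the eyes of number 66, 0.81 on the log2 scale, was nearly as wide as that 0.82 span between numbers. miR-301a-3p ran the other way, with 5428 in number 68 and 3976 in number 64 (adjusted p = 0.317). For miR-130a-3p the highest was again 64 (36483) and the lowest 68 (28901, adjusted p = 0.393), and miR-301b-3p spanned only 3034 to 3577 (adjusted p = 0.683).

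Over the 10 libraries the correlation of log2 values was highest within the 2 miR-130 members and within the 2 miR-301 members, an order that did not hold without number 68. It was 0.66 (Spearman 0.60) for miR-130a-3p with miR-130b-3p and 0.49 (Spearman 0.80) for miR-301a-3p with miR-301b-3p. Without the 2 libraries farthest from the median of the first-named member these were 0.52 and 0.50. miR-130b-3p and miR-301b-3p, neighbours on chromosome 16, had a correlation of -0.42 (Spearman -0.51, and -0.46 without the 2 farthest libraries). The lowest value was that of miR-130b-3p with miR-301a-3p, -0.68 (Spearman -0.76), or -0.87 without the 2 farthest libraries. miR-130a-3p had -0.45 with miR-301a-3p, which became 0.11 without the libraries of number 68 and so rests on them, and 0.14 with miR-301b-3p, which became 0.55 without number 68, above the 0.52 it then had with miR-130b-3p. These 6 values are descriptions over 10 libraries that share a normalisation and, in pairs, a title number.

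**Figure D3:**
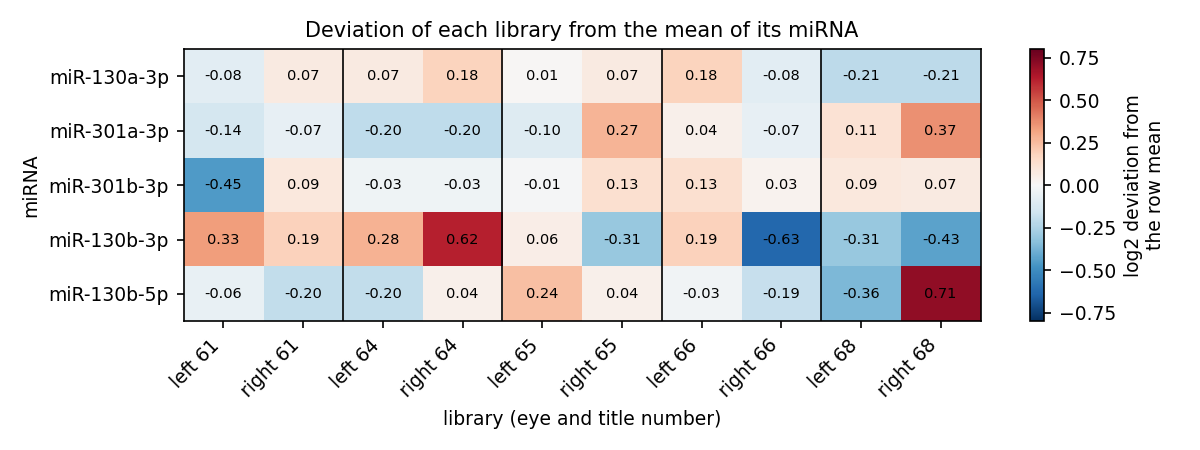
The log2 deviation of each library (columns, left and right eye of each title number) from the mean of its row, for the 4 members and miR-130b-5p (rows), with black lines between numbers. miR-130b-3p is high in both eyes of numbers 61 and 64 and low in both eyes of 68, where miR-301a-3p is high, and miR-130b-5p stands apart in right eye 68.

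The values of miR-130b-3p moved with the summed signal of cell type marker miRNAs over the libraries. miR-130b-3p tended to be high where surface epithelium miRNAs were high and low where endothelial, leukocyte and erythroid miRNAs were high. The order was not strict. Left eye 61 had 1481 at a surface epithelium sum of 113.0 k, and left eye 65 had 1221 at 158.2 k. Right eye 66, lowest for miR-130b-3p, had the lowest surface epithelium sum (25.3 k) and the highest endothelial sum (341.6 k). Right eye 64, highest for miR-130b-3p, had a surface epithelium sum of 205.5 k and the lowest endothelial sum (198.1 k). The surface epithelium list, with miR-184-3p and miR-205-5p of cornea, lens and stratified epithelia, summed to between 63.8 and 244.5 k in left and between 25.3 and 205.5 k in right eyes. The endothelial list, miR-126a-3p and miR-126a-5p of the Egfl7 intron, summed to between 201.0 and 266.7 k in left and between 198.1 and 341.6 k in right eyes. Both sums are mostly the signal of a single miRNA. miR-184-3p had a mean of 118434 in a mean surface epithelium sum of 130.2 k. For miR-126a-5p it was 175935 in a mean endothelial sum of 241.2 k.

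Over the 10 libraries the correlation of miR-130b-3p on the log2 scale was -0.93 with the endothelial sum (Spearman -0.95) and stayed between -0.96 and -0.92 when any number was left out. It was -0.92 with the leukocyte sum, of miR-142a-3p, miR-142a-5p, miR-223-3p and miR-150-5p, and -0.92 with the erythroid sum of miR-451a and miR-144-3p. With the surface epithelium sum it was 0.89 (Spearman 0.83), between 0.87 and 0.93 with any number left out. Without the 2 libraries farthest from the median of each sum these values were -0.92, -0.95, -0.83 and 0.79 in the same order. Of the other miRNAs tested, 1 of 584 had as low a correlation with the endothelial sum (0.171%) and 2 of 581 had as high a one with the surface epithelium sum (0.344%). The share was 0.515% for the leukocyte, 0.856% for the erythroid and between 2.41% and 49.4% for the remaining sums. The sums named were picked after the values were seen, so these shares are not probabilities of a chance result. By single markers, 2 of 2 endothelial, 4 of 4 leukocyte and 2 of 2 erythroid miRNAs had a negative correlation with miR-130b-3p, and 5 of 5 surface epithelium miRNAs a positive one. The negative sign was also found for 3 of 3 striated muscle, 4 of 5 retina and neuron and 4 of 5 smooth muscle and fibroblast miRNAs. Over 583 other miRNAs the median correlation with miR-130b-3p was 0.01. The 2 endothelial miRNAs are arms of the same hairpin, as are miR-142a-3p and miR-142a-5p, so these counts are not of separate genes. Single surface epithelium miRNAs had correlations between 0.39 and 0.90. The leukocyte sum ran from 9.95 to 15.6 k in left and 9.61 to 15.2 k in right eyes, and the erythroid sum from 1.02 to 1.93 k and from 0.986 to 2.32 k.

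Over all 10 libraries the other members had correlations nearer to 0 with these sums, and for miR-301a-3p this rested on few libraries. With the endothelial sum the correlation was -0.52 for miR-130a-3p, 0.39 for miR-301a-3p and 0.40 for miR-301b-3p, and with the surface epithelium sum it was 0.70, -0.49 and -0.13 in the same order. With the leukocyte sum it was -0.66, 0.58 and 0.39, and with the erythroid sum -0.71, 0.60 and 0.33. Without the 2 libraries farthest from the median of each sum, miR-301a-3p had 0.72 with the endothelial, 0.92 with the leukocyte, 0.74 with the erythroid and -0.75 with the surface epithelium sum. Each had the opposite sign to that of miR-130b-3p. With smooth muscle and fibroblast markers such as miR-143-3p and miR-199a-3p, miR-130b-3p had -0.70 and the others between -0.34 and 0.41. The marker sums are parts of the same fixed total, share libraries with the members and were set beside them after their values were seen. Their part in the differences of miR-130b-3p was not tested.

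**Figure D4:**
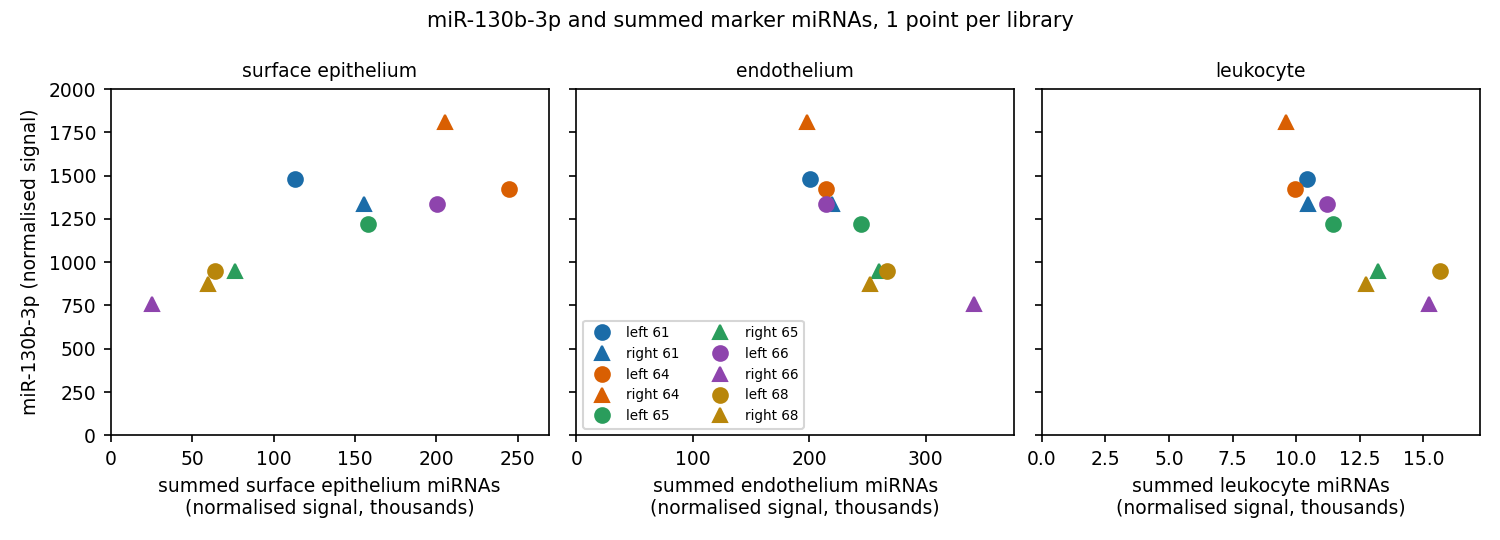
Normalised signal of miR-130b-3p (vertical axis) against the summed signal of surface epithelium, endothelium and leukocyte marker miRNAs (horizontal axes, kilounits of signal, k), with circles for left and triangles for right eyes and a colour for each title number. miR-130b-3p is at 1811 where the endothelial sum is 198.1 k and at 761 where it is 341.6 k.

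The hairpins differed in the signal of the other arm, and differences between arms in ligation and amplification were not tested. The 5p arm was rare for 3 of the 4. miR-130a-5p had a signal between 1.88 and 11.99, and miR-301a-5p between 5.20 and 14.2. miR-301b-5p was listed at 0 in 7 of 10 libraries and reached at most 1.60. The mean of the 3p arm exceeded that of the 5p arm 6612 times for miR-130a and 568 times for miR-301a. These ratios rest on low 5p signals, and by library they ran from 2410 to 20175 and from 332 to 945. The miR-130b hairpin had more 5p signal, with miR-130b-5p at 206 ± 49.1 (SD, n = 10) and a mean 5.89 times as high for the 3p arm.

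Between the eyes of a number, the 2 arms of miR-130b moved the same way in 4 of 5 numbers and parted in number 68. The right minus left log2 difference in number 68 was -0.12 for the 3p arm and 1.07 for the 5p arm. In left eyes 61, 64, 65, 66 and 68 the 3p signal was 7.65, 8.11, 5.13, 6.74 and 6.05 times the 5p signal. In right eyes it was 7.60, 8.72, 4.58, 4.30 and 2.64 times. The highest ratios were in numbers 61 and 64 and the lowest in right eye 68, and the sides overlapped. On the log2 scale the 5p arm relative to the 3p arm averaged -2.73 ± 0.27 for left eyes and -2.34 ± 0.69 for right eyes (SD, n = 5 each), a difference of 0.38 with a 95% interval of -0.12 to 0.88 (limma adjusted p = 0.808 over the 158 hairpins with both arms kept). Without number 68 the difference was 0.18. In limma 0 of 158 hairpins passed (0%), and 3 had an unadjusted p under 0.05 (1.90%), miR-130b not among them. miR-130b-5p alone averaged 192.5 ± 30.2 over left eyes and 219.5 ± 63.6 over right eyes, a log2 fold change of 0.16 (-0.31 to 0.64, limma adjusted p = 0.967), which was -0.064 without number 68.

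In right eye 68 miR-130b-5p reached 329.8, where the other 9 libraries lay between 157 and 238. The same library had the highest retina and neuron sum, 1330.3 k. The correlation of miR-130b-5p with that sum was 0.92 over 10 libraries (Spearman 0.72). With any number left out it stayed between 0.84 and 0.94. Without the 2 libraries farthest from the median of the sum it was 0.49, so its size depends in part on them. miR-130b-3p had -0.11 with the retina and neuron sum, and 0.74 without the same 2 libraries, right eye 68 and left eye 65. miR-130b-5p had -0.03 with the endothelial sum, and 0.26 without right eyes 66 and 64. The part of retinal RNA in the ratio of the arms was not tested.

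**Figure D5:**
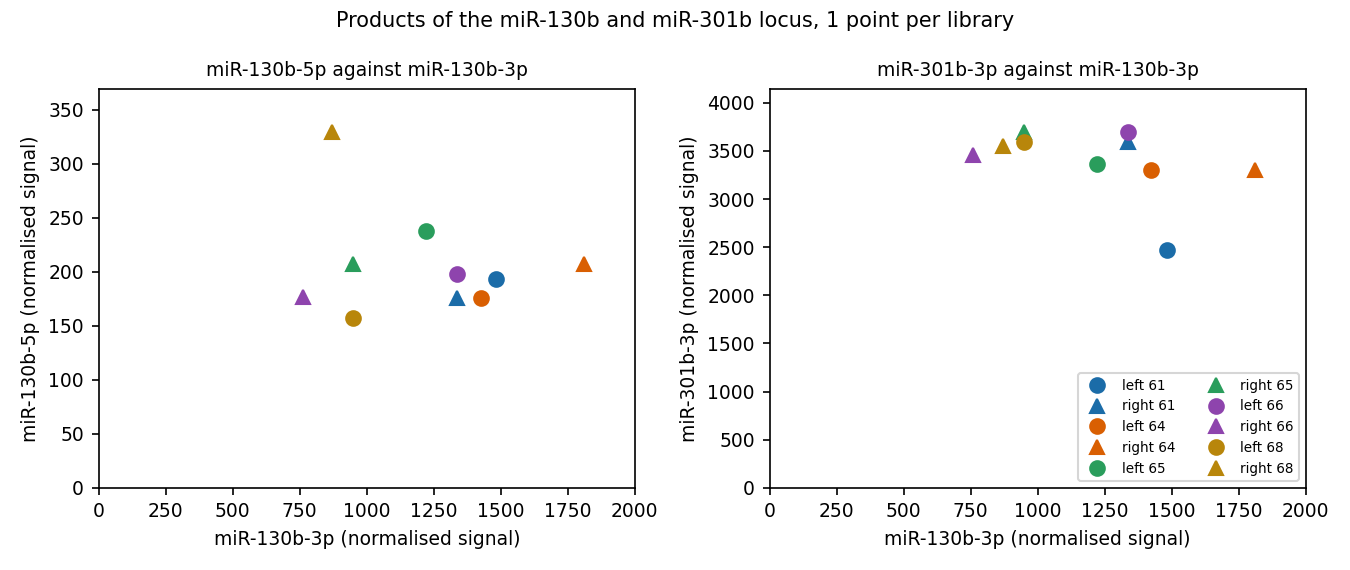
Normalised signal of miR-130b-5p (left panel) and miR-301b-3p (right panel) against that of miR-130b-3p, with 1 point per library, circles for left and triangles for right eyes. In right eye 68 miR-130b-5p stands at 329.8, and miR-301b-3p stays between 3303 and 3700 in 9 libraries while miR-130b-3p runs from 761 to 1811.

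In RefSeq's set of mature miRNAs, 7 names had bases 2 to 8 equal to AGUGCAA, 3 of them members. Of the other 4, miR-6341 was the 1 found in the deposited table, where it was listed at 0 in 8 of 10 libraries and reached 3.401 in left eye 64. Seeds were read only for the 1135 of 1340 miRNAs whose names matched RefSeq.

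The 5 miRNAs whose seed is shifted by 1 base outweighed the family in signal. miR-148a-3p had 62529 ± 13394, miR-148b-3p 42466 ± 4726, miR-152-3p 5906 ± 707, miR-19b-3p 850 ± 125.0 and miR-19a-3p 299.8 ± 125.5 (SD, n = 10). Of these 5, 3 were higher and 2 lower in right eyes, 0 passed in limma (0% of all miRNAs tested) and the median log2 fold change was 0.0024, beside 0.02 over all. Between numbers 0 of 5 passed (1.19% of all), and 3 of 5 had an unadjusted p under 0.05 (23.3% of all). miR-148a-3p, from 47207 in number 64 to 84548 in number 68, had an adjusted p of 0.0502 in limma.

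The list of 17 vessel wall and matrix miRNAs, chosen with earlier results of these data known, had 10 members higher and 7 lower in right eyes, none past the threshold in limma (0% of all miRNAs tested), and a median log2 fold change of 0.02, as over all. Between numbers 5 of 17 had an unadjusted p under 0.05 (23.3% of all) and 1 of 17 passed (1.19% of all), miR-29c-3p, which targets collagen mRNAs and ran from 4480 in number 64 to 10841 in number 68 (limma adjusted p = 0.0430). No miRNA passed between numbers when the trend, number 61, number 64, number 68 or right eye 68 alone was left out, so this call was lost there. The most abundant of the list were the smooth muscle miRNA miR-143-3p (793902 ± 78507), miR-27b-3p (605912 ± 71087), the endothelial miR-126a-5p (175935 ± 34608) and the fibroblast miRNA miR-199a-3p (97784 ± 8464, SD, n = 10 each). Their log2 fold changes were 0.02, -0.13, 0.17 and 0.02. miR-27b-3p had the same value, 628392, in every library except right eye 68. Its SD and its fold change thus come from that library alone.

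The miRNAs whose log2 values were most like those of each member over the 10 libraries differed from member to member. For miR-130a-3p they were miR-103-3p (Pearson correlation 0.96), miR-330-3p (0.94) and miR-92a-3p (0.88). For miR-130b-3p they were miR-34a-5p (0.93), miR-135a-2-3p (0.93) and miR-3475-3p (0.93). For miR-301a-3p they were miR-872-3p (0.96), miR-19b-3p (0.92) and miR-340-5p (0.89). For miR-301b-3p the values were lower, miR-335-5p (0.81), miR-32-3p (0.79) and miR-802-5p (0.77), and the last 2 fell to 0.26 and 0.41 with a single number left out. Correlations above 0.8 were found with 34 of 583 other miRNAs for miR-130b-3p, 16 for miR-301a-3p, 13 for miR-130a-3p and 1 for miR-301b-3p.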

How the data were processed

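Libraries of 10 eyes were prepared with Illumina's TruSeq kit for small RNA, per the labels' protocols, whose extraction text speaks of retinae while the tissue label, followed here, names the RPE/choroid/sclera. The authors deposited a normalised signal for 1340 mature miRNAs, made with Bowtie and Partek on GRCm38 (mm10), per the submitters' processing notes, with the method of normalisation not given in the sources used here. Of the 134 highest ranks, 132 hold values within 1 percent of each other in all libraries, so abundant miRNAs move in steps, and only 7.31% of values above 0 were whole within 0.001, so reads were not recovered and no count model was used.

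Values were analysed as log2(signal + 1) for the 588 miRNAs with a mean of at least 10, by limma 3.58.1 in R 4.3.3 (mean-variance trend, title number as block, two-sided, Benjamini-Hochberg at 0.05). The F test over title numbers came from the additive fit of side and number, and arm ratios were fitted without a trend. Descriptions were made with Python 3.11.15. The fits were tested on simulated data with independent normal noise. Those data had no steps between ranks and, for right against left, no title number effect, so the check does not cover these features.

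The block follows the protocol, in which the treated and fellow eye of an animal are compared, and the shared title number. Over miRNAs, the deviations from the side means of the 2 eyes of a number had a correlation of 0.12, 0.45, 0.01, -0.13 and 0.28 for numbers 61, 64, 65, 66 and 68, and the values alone do not show that the numbers pair the eyes. The labels are silent on what libraries of a number share, and p-values measure the spread between these libraries. RefSeq names matched 1135 of the 1340 miRNAs, and the deposited stop lay 1 base past RefSeq's end in all 1133 with the same start, so ends are printed as stop minus 1.

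The members, the lists and the tests were chosen with earlier results of these data known. Named miRNAs are the members, list members given as examples by abundance or by passing the test, and the 3 miRNAs most correlated with each member. Marker sums were set against members after their values were seen.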

Additional observations from a re-analysis of the deposited data

Results flagged for a closer look

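In 24 checks of 5 eyes each, over the members, miR-130b-5p, the family sum, the shares and the 2 ratios, 3 eyes lay far from the other 4 of their side. Chance gives about 1 in 20 for independent values, and the quantities checked here share members. Left eye 61 was low in miR-301b-3p, with 2473 against 3303 to 3700 in the other left eyes. It stood apart on the log2 scale and not on the untransformed one. Right eye 68 was high in miR-130b-5p, with 329.8. In left eye 68 miR-130a-3p held 75.3% of the family sum, below the other left eyes. Right eye 68 had a lower share still, 73.7%, the lowest of the right eyes, and was not flagged.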

How the results depend on the processing

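No member passed in any alternative. The lowest adjusted p in limma over the 13 alternatives for right against left was 0.839 (miR-130b-3p and miR-301b-3p), and over the 12 for title numbers 0.101 (miR-130b-3p). Without the replicate block the log2 fold changes were the same (miR-130b-3p -0.22) and all adjusted p were 0.997. With a number left out, miR-130a-3p ran from -0.022 to 0.082 and turned direction without 61 (-0.022) or 64 (-0.011). miR-130b-5p ran from -0.064 to 0.25, and was -0.064 without 68. Leaving out right eye 68 alone, an alternative chosen after seeing the data, gives the same right against left values by design. With the number as a block, left eye 68 then has no partner, so this is no separate check of right against left. The range was -0.36 to -0.072 for miR-130b-3p, 0.055 to 0.18 for miR-301a-3p and 0.0058 to 0.17 for miR-301b-3p. The number of miRNAs that differed between title numbers was 7, 23 with a mean signal of at least 100, 12 with median centring, 0 without a trend, 0 to 22 with a number left out (0 without 61, 64 or 68) and 0 without right eye 68 alone. The number of hairpins with a changed arm ratio was 0, and 0 to 1 with a number left out. The causes of these moves were not tested. The depth of the libraries is unknown, and steps between ranks limit what can be seen for every member, miR-130b-3p included.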
